A study of Mus musculus with 6 samples.

Results

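The mitochondrial import machinery and the chaperones that fold imported proteins were followed as a set of 39 genes out of 30409 measured. Members were taken by symbol, with no value used in the rule, although earlier results of these data were known when the set was proposed: the 25 genes named Timm or Tomm with a number, pseudogenes left out, and 14 further genes for chaperones, the import motor, the processing peptidase and matrix proteases. RNA had been sequenced from mouse bone marrow cells sorted as long-term haematopoietic stem cells (Lineage−Sca1+cKit+CD34−Flk2−, strain C57BL/6). There were 4 libraries and 4 groups: wild type at steady state, Twist1 conditional knockout (cKO) at steady state, wild type taken 12 days after irradiation and Twist1 cKO taken 12 days after irradiation. The Twist1 protein is a transcription factor of the basic helix-loop-helix family, and the series asked what its deletion does to stem cells, with a mitochondrial gene programme in its title. The Cre driver, the deleted exons, the radiation dose, the ages and any pooling of animals are not given in the labels.

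Each group held 1 library, so the differences below could not be checked against replicates, and groups were not tested against each other. The values are FPKM, reads scaled by the authors for gene length and library size, and reads were recovered from them. Folds are on the deposited scale, with 95% intervals that cover counting error only and not the choice of scale. Differences are also given as log2(FPKM + 1), cKO minus wild type or irradiated minus steady state, over genes reaching 5 FPKM in the higher library. Of the 39 members 34 reached it in every comparison, and in those each library had between 906 and 52706 reads per member.

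Most mitochondrial proteins are made in the cytosol and imported. They enter through the translocase of the outer membrane (TOM) and are handed on either to the presequence translocase TIM23 or, for carrier proteins, across the intermembrane space by small Tim chaperones to TIM22. The matrix Hsp70 motor pulls presequence proteins in, the processing peptidase removes the presequence, and the Hsp60/Hsp10 chaperonin folds many of the products. Long-term haematopoietic stem cells are known for low reliance on mitochondrial respiration at rest.

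The sorted cells were checked first. Twist1 was near the limit of detection, with 6 reads (wild type) and 2 reads (cKO) at steady state and then 5 and 0 after irradiation, where 0 reads allow up to 3. This is too few to check the deletion. The gate and stem cell markers were all detected. However, 8 of the 8 that passed the minimum were at least 1.5-fold lower in the irradiated wild-type library. In the irradiated cKO library 7 of 8 were. The shares over all genes were 26.9% in wild type and 34.6% in cKO. Procr, a stem cell surface receptor, was measured at 51.3 FPKM in steady-state wild type, 66.1 in steady-state cKO, 0.334 in irradiated wild type and 1.22 in irradiated cKO. The 4 values of a gene are given in that order from here on. Kit, part of the gate, was measured at 20.1, 27.6, 8.52 and 4.98. At the RNA level the irradiated libraries therefore went against the stem cell label of their sort. The sex-linked transcripts Xist (0.0171, 0.0155, 1.003 and 0.573 FPKM) and Ddx3y (10.2, 12.4, 0.0521 and 0.0164) divided the libraries in the same way, so irradiation and this difference between animals cannot be told apart. In bulk RNA, fewer cells of a type and less RNA per cell cannot be told apart either. Reads recovered in genes were 25031953, 22060031, 24693043 and 20298900, while the library sizes implied by the FPKM were 26031985, 25239648, 22146433 and 23450734, so the scale of a library moved its values.

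Import genes were abundant, and nearly all of them were higher in both irradiated libraries than in either steady-state library. The median of the 34 members was 47.8 and 42.6 FPKM at steady state, wild type first, and 107 and 67.0 after irradiation. For 30 of the 34, both irradiated libraries lay above both steady-state ones, and for 33 the irradiated wild-type library was the highest. As a share of reads in genes, which does not depend on library size, the 39 members took 0.445%, 0.465%, 1.16% and 0.943%. Timm44, the anchor of the import motor, was the lowest of the 34 at steady state, at 14.2 FPKM in wild type and 13.4 in cKO. The highest were Tomm5, a small TOM subunit, in wild type at steady state and Hspe1, the chaperonin lid, in both irradiated libraries.

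**Figure D1:**
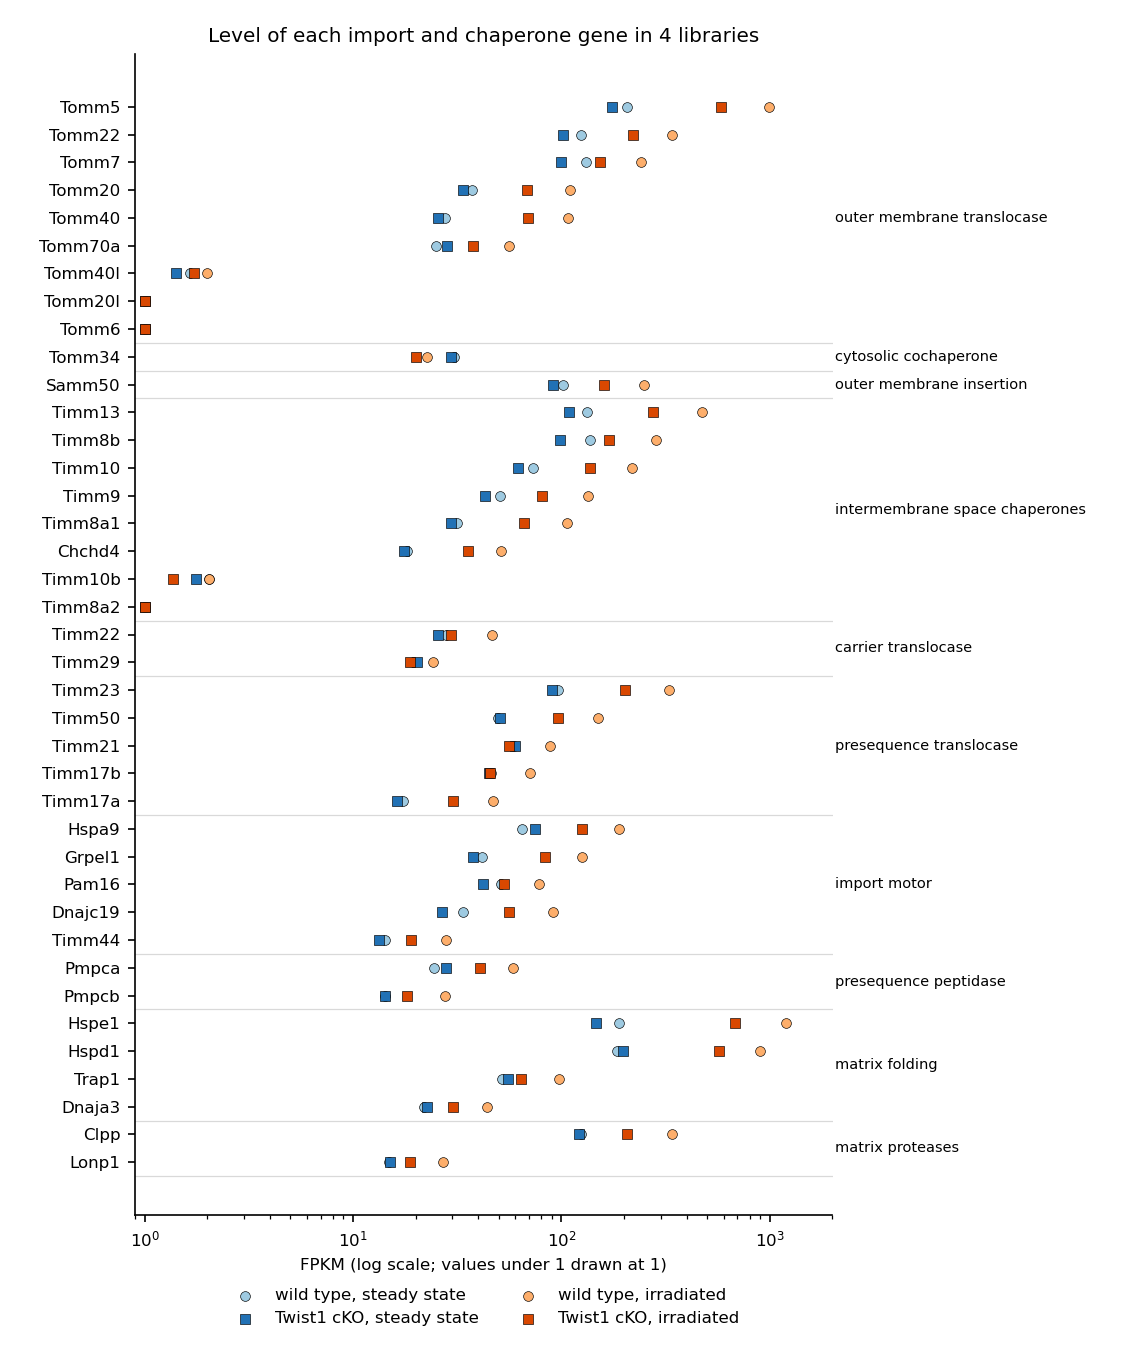
Level of each of the 39 genes (rows, grouped by role) in the 4 libraries; the x axis is FPKM on a log scale, with values under 1 drawn at 1. The 2 irradiated libraries lie to the right of both steady-state libraries for 30 of the 34 genes that reached 5 FPKM, and Tomm34 is the gene with both to the left on this scale.

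The other 5 members stayed under the minimum in every library. Tomm40l, a paralog of the TOM channel, was measured at 1.65, 1.41, 1.996 and 1.72 FPKM, and Timm10b, a small Tim of TIM22, at 2.04, 1.76, 2.04 and 1.37. Both were low in all 4 libraries. Tomm40l was higher in both irradiated libraries than in both steady-state ones, but only by 1.21-fold (1.003 to 1.47) in wild type and 1.22-fold (0.993 to 1.49) in cKO. Timm10b did not show that order. Tomm20l had 0, 1, 3 and 2 reads and Timm8a2 had 1 read in all, from steady-state cKO. Tomm6, a small TOM subunit, had 0, 1, 0 and 2 reads, although its partner subunits were abundant. It overlaps 4 other annotated genes (Gm20517, Usp49, Frs3 and Tomm6os), and whether that bears on its low value was not tested. In all, 22 of the 39 members overlap another annotated gene, and the labels do not say how reads over such stretches were assigned.

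The chaperonin pair had the largest irradiation differences of the set in wild type, and Hspe1 also in the cKO, where Tomm5 came before Hspd1. Hspd1 encodes Hsp60, the barrel of the chaperonin, and Hspe1 encodes Hsp10, its lid. Their genes lie head to head on chromosome 1 (GRCm38.p6), Hspd1 at chr1:55077833-55088243 on the minus strand and Hspe1 at chr1:55088148-55091317 on the plus strand. Hspd1 has an inner annotated start at 55087932 and an outer one at 55088243, so the outer first exon overlaps the start of Hspe1. The 215 bases between the inner start of Hspd1 and the start of Hspe1, chr1:55087933-55088147, are shown from RefSeq on the plus strand because they lie upstream of Hspe1 and of the inner start of Hspd1. With the outer start they fall within the Hspd1 gene. Capitals mark every match, on either strand, to the heat shock element core TTCNNGAA or to the ETS core CCGGAAG.
Hspd1-Hspe1 shared region: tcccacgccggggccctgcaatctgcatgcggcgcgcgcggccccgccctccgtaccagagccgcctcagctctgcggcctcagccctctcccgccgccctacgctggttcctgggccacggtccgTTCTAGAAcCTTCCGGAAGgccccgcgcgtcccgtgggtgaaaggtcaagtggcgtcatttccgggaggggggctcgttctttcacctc
The region held 2 heat shock matches and 2 ETS matches. The first heat shock match stands alone in the first block of capitals. The second overlaps both ETS matches within the second block.

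Hspe1 was measured at 188, 147, 1193 and 677 FPKM. Both irradiated libraries were far above both steady-state ones, and the cKO library was the lower of each pair. Against steady state, Hspe1 was 6.33-fold higher (6.11 to 6.56) in wild type and 4.62-fold higher (4.43 to 4.82) in cKO. Among the 7418 genes compared in wild type, 57 had a larger log2 difference. Hspd1 was measured at 184, 197, 901 and 572 FPKM. It too was highest in the irradiated wild-type library, but at steady state the cKO value was the higher one. The folds against steady state were 4.89 (4.80 to 4.99) in wild type and 2.90 (2.84 to 2.96) in cKO. The ratio of Hspe1 to Hspd1, in FPKM, was 1.02, 0.743, 1.32 and 1.18. The lid was thus the more abundant partner in both irradiated libraries, and the ratio was lower in the cKO in each condition. Annotated processed pseudogenes of both genes exist, and reads shared with them cannot be told apart here.

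**Figure D2:**
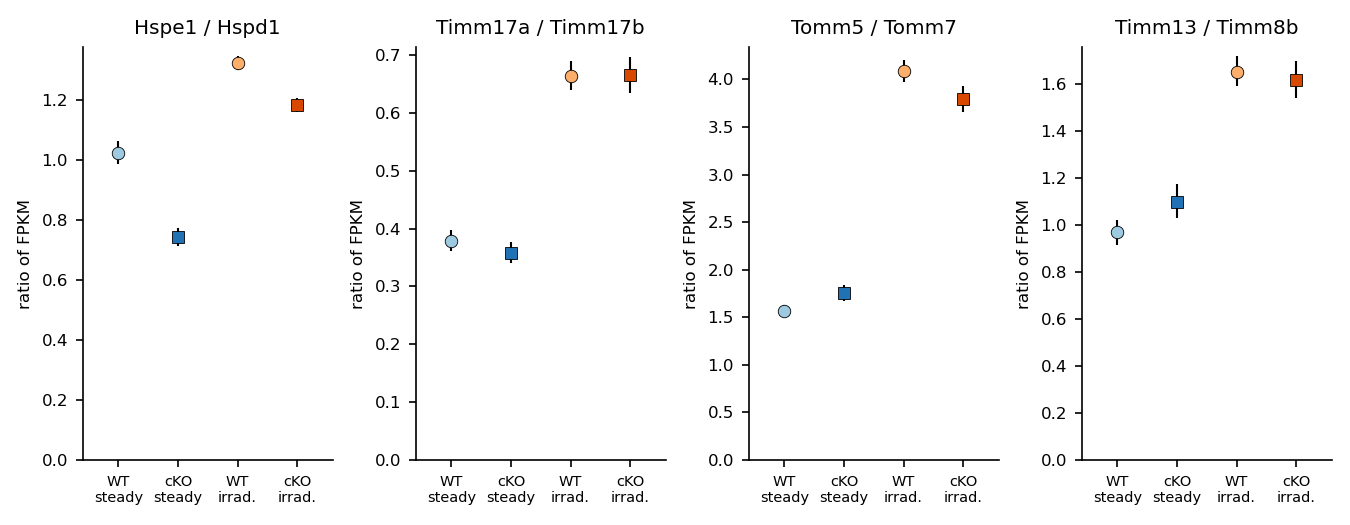
Ratio of FPKM between partner genes (y axis, starting at 0) in each of the 4 libraries, with 95% counting intervals as bars. Hspe1/Hspd1 was lowest in steady-state cKO (0.743), and the other 3 ratios stood higher in both irradiated libraries than in both steady-state libraries.

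In wild type, 31 of the 34 members were at least 1.5-fold higher after irradiation and 0 were at least 1.5-fold lower. Over all 7418 genes compared, 34.9% were higher and 26.9% lower by the same rule. The members' median difference was 1.39 on the log2(FPKM + 1) scale, against 0.21 for all genes, which puts the members 1.18 above. In the cKO, 21 of 34 were at least 1.5-fold higher and 0 lower, beside 20.8% and 34.6% of 7393 genes. Their median difference was 0.79, against -0.20 for all genes, or 0.99 above. These medians describe the members beside all genes, without a test.

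**Figure D3:**
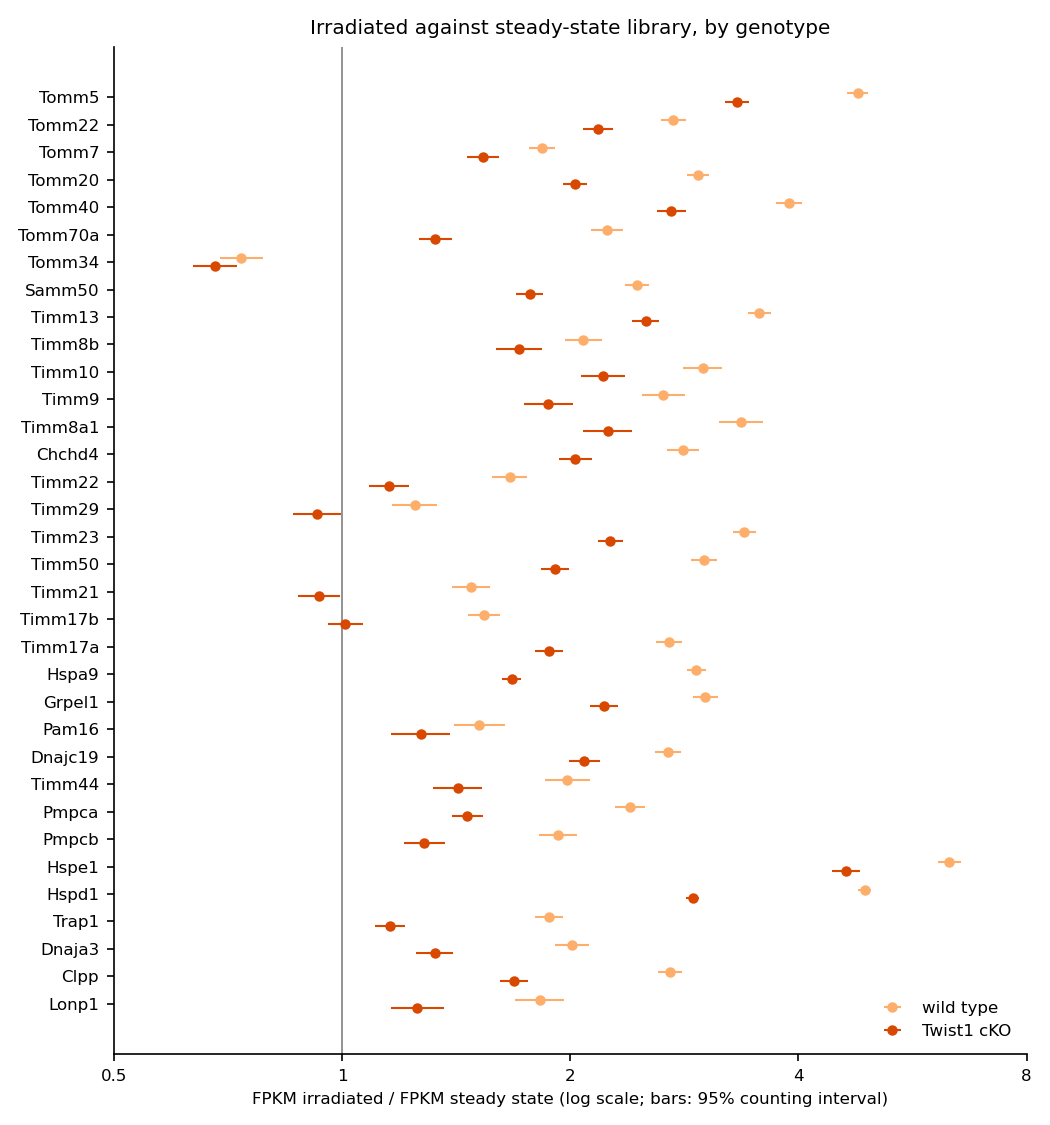
Ratio of irradiated to steady-state FPKM (x axis, log scale) for the 34 members that reached 5 FPKM, in wild type and in Twist1 cKO, with 95% counting intervals as bars. The wild-type ratio lies to the right of the cKO ratio for every gene drawn, from Hspe1 at 6.33 and 4.62 down to Tomm34 below 1 in both on the deposited scale.

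Among the outer membrane genes, the 6 TOM members kept had a median difference of 1.49 in wild type and 1.06 in cKO. Tomm5 was measured at 206, 175, 987 and 582 FPKM. It was 4.79-fold higher (4.64 to 4.95) after irradiation in wild type and 3.32-fold higher (3.20 to 3.45) in cKO. Tomm22, the central receptor that holds the complex together, was measured at 124, 102, 339 and 221 FPKM, and Tomm20, the receptor for presequences, at 37.3, 33.6, 110 and 68.2. Both receptors showed the same order of libraries as Tomm5. Tomm40, the channel of the complex, was measured at 27.7, 25.5, 108 and 69.4 FPKM, a 3.88-fold difference (3.73 to 4.04) in wild type and a 2.72-fold one (2.61 to 2.84) in cKO. Tomm7, another small subunit, differed less: at 132, 99.8, 242 and 153 FPKM it was 1.84-fold higher in wild type and 1.54-fold higher in cKO. The ratio of Tomm5 to Tomm7 thus stood at 1.57, 1.75, 4.09 and 3.79. Tomm70a, a receptor for carrier proteins that arrive with cytosolic chaperones, was measured at 25.1, 28.3, 56.0 and 37.5 FPKM. It was the TOM member with the smallest fold in the cKO, at 1.33 (1.26 to 1.40). Samm50, which inserts barrel proteins into the outer membrane, was measured at 102, 90.9, 250 and 161 FPKM and was 2.45-fold higher in wild type and 1.77-fold higher in cKO.

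Tomm34 was the exception. It encodes a cytosolic cochaperone of Hsp70 and Hsp90 rather than a subunit of the TOM channel. It was measured at 30.7, 29.6, 22.6 and 20.1 FPKM. As deposited, both irradiated libraries lay below both steady-state ones, 1.36-fold lower (1.27 to 1.45) in wild type and 1.47-fold lower (1.37 to 1.57) in cKO, and on the log2 scale the difference turned from -0.42 and -0.53 to 0.10 and 0.05 with scaling by the upper quartile. That scaling moved the median of all genes to 0.76 and 0.45, so Tomm34 stayed below it, as it did with every scaling tried.

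In the intermembrane space, the 6 small Tim and related members kept had median differences of 1.51 in wild type and 1.06 in cKO. Timm13 pairs with Timm8 proteins in a chaperone complex for inner membrane precursors. It was measured at 133, 109, 472 and 274 FPKM, 3.55-fold higher (3.43 to 3.68) in wild type and 2.51-fold higher (2.41 to 2.62) in cKO. Timm8b, one of its partners, was measured at 137, 99.0, 286 and 169 FPKM and differed less, by 2.08-fold and 1.71-fold. The other partner, Timm8a1, stood at 31.5, 29.4, 106 and 65.9 FPKM and was 3.36-fold and 2.24-fold higher. The ratio of Timm13 to Timm8b was 0.969, 1.10, 1.65 and 1.62, and that of Timm13 to Timm8a1 was 4.22, 3.70, 4.46 and 4.16. Both ratios were higher after irradiation in each genotype, the first by more, and for the second the counting intervals overlapped in each genotype. Timm9 and Timm10 form the other small chaperone complex and were measured at 50.6, 43.2, 134 and 80.9 FPKM and at 73.2, 61.8, 219 and 137 in turn. Their ratio was lower after irradiation, from 0.691 and 0.699 at steady state to 0.614 and 0.593, with counting intervals apart in the cKO only. Chchd4, the oxidoreductase that folds these small proteins, was the lowest kept member of the group, at 18.2, 17.6, 51.4 and 35.8 FPKM.

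The inner membrane translocases divided. Timm23, the core of the presequence channel, was measured at 96.8, 89.7, 329 and 203 FPKM, 3.40-fold higher (3.28 to 3.51) in wild type and 2.26-fold higher (2.18 to 2.35) in cKO. Timm50, the receptor of the channel, was measured at 49.6, 50.5, 149 and 96.5 FPKM. The Timm17 subunit comes in a pair of paralogs. Timm17a was measured at 17.4, 16.2, 46.9 and 30.3 FPKM and Timm17b at 45.9, 45.2, 70.6 and 45.7. The Timm17b level in the irradiated cKO library was the same within counting error as at steady state (1.01-fold, 0.959 to 1.07), whereas Timm17a was 1.88-fold higher (1.80 to 1.96). The ratio of Timm17a to Timm17b was 0.379, 0.358, 0.664 and 0.665, so Timm17b stayed the more abundant paralog. Timm21, which links the translocase to TOM, stood at 59.6, 60.1, 88.1 and 56.1 FPKM. It was higher in wild type after irradiation (1.48-fold) and in cKO 1.07-fold lower (1.005 to 1.14) as deposited, but above steady state once centred on the median of all genes (0.10 on the log2 scale). Timm29 behaved alike in the cKO. The carrier translocase showed the smallest differences of the inner membrane groups, a median of 0.51 in wild type and 0.05 in cKO. The Timm29 subunit of this complex was measured at 19.5, 20.2, 24.3 and 18.7 FPKM, and its channel Timm22 at 28.0, 25.7, 46.6 and 29.6.

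Inside the matrix, the 5 motor members had median differences of 1.40 in wild type and 0.74 in cKO. Hspa9, the matrix Hsp70 that drives import, was measured at 64.4, 75.1, 189 and 126 FPKM, 2.93-fold higher (2.85 to 3.02) in wild type and 1.67-fold higher (1.63 to 1.72) in cKO. Its nucleotide exchange factor Grpel1 was measured at 41.6, 37.6, 125 and 83.3 FPKM, higher by 3.01-fold and 2.22-fold. Dnajc19, the J protein of the motor, was measured at 33.8, 26.8, 91.2 and 56.0, and Timm44, its anchor, at 14.2, 13.4, 28.1 and 19.0. All 4 of these showed the irradiated wild-type library highest. Pam16, the regulator of that J protein, stood at 51.6, 41.9, 78.2 and 53.2 FPKM and was higher by 1.52-fold and 1.27-fold, the smallest fold of the motor in each genotype. Pmpca and Pmpcb form the processing peptidase, regulatory and catalytic subunit in turn. Pmpca was measured at 24.5, 27.8, 58.9 and 40.7 FPKM and Pmpcb at 14.3, 14.2, 27.6 and 18.2. The regulatory subunit was the more abundant in all 4 libraries. Trap1, the mitochondrial Hsp90, stood at 51.8, 55.4, 97.1 and 64.2 FPKM and was 1.87-fold and 1.16-fold higher, and the matrix J protein Dnaja3 (21.8, 22.7, 43.9 and 30.04 FPKM) was 2.01-fold and 1.33-fold higher. Of the matrix proteases, Clpp was the abundant one, at 125, 122, 338 and 206 FPKM, and Lonp1 was measured at 14.9, 15.0, 27.2 and 18.9.

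At steady state the members' values lay close between the genotypes. None of the 34 members, 0 in each direction, was 1.5-fold apart, beside 1.77% of 7157 genes higher in cKO and 5.51% lower. The members' median difference was -0.10 against 0.01 for all genes, with 10 members above 0 and 24 below. That balance depended on the scale: with the 50 most abundant genes left out and the rest rescaled, 24 were above 0 and 10 below (median of all genes 0.21), and on the scale of reads recovered in genes 21 were above and 13 below (median of all genes 0.14). Timm8b was the lowest in cKO relative to wild type (1.39-fold lower, 1.29 to 1.49), followed by Tomm7 (1.32-fold lower, 1.26 to 1.39) and Hspe1 (1.29-fold lower, 1.22 to 1.35). Hspa9 was the highest (1.16-fold higher, 1.13 to 1.20), followed by Pmpca and Tomm70a (each 1.13-fold higher). The differences followed gene length. The 12 members with a gene model under 1500 bases had a median difference of -0.26, with 11 below 0, and the 22 longer ones a median of -0.03. All genes showed the same direction, -0.21 for 1614 shorter and 0.04 for 5543 longer genes. Spearman's rho between model length and difference was 0.53 over the 34 members and 0.36 over all genes, a description across genes of the same pair of libraries, and the part of length in the result was not tested.

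**Figure D4:**
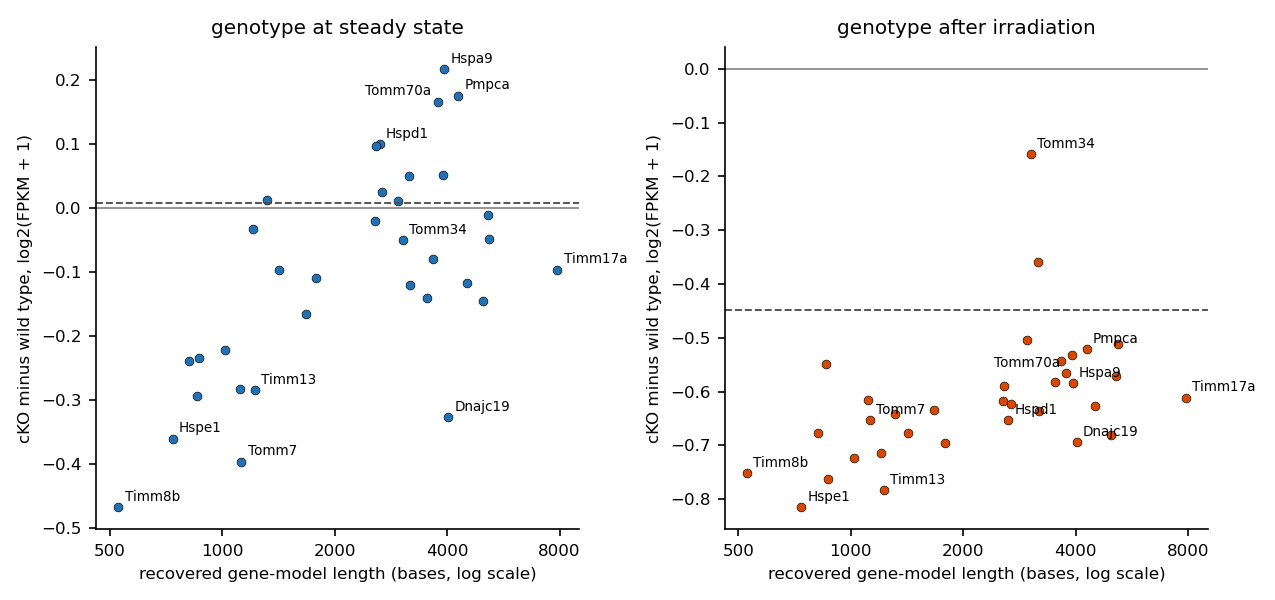
Difference in log2(FPKM + 1), cKO minus wild type (y axis), against gene-model length in bases (x axis, log scale) for the 34 members, at steady state (left) and after irradiation (right); dashed lines mark the median of all genes. At steady state shorter genes such as Timm8b (-0.47) lie low and Hspa9 (0.22) high, and after irradiation all 34 lie below 0 on the deposited scale and 32 below the dashed line, with Tomm34 (-0.16) the highest.

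After irradiation all 34 members were lower in the cKO library than in the wild-type library on the deposited scale, and 32 were (all but Timm29 and Tomm34) once centred on the median of all genes. Of these, 22 were at least 1.5-fold lower and 0 higher, beside 24.6% of 6348 genes lower and 7.42% higher. The members' median difference was -0.63. The median of all genes was itself -0.45, so the members stood -0.18 from it, with 32 of 34 below it. Centred on that median, or scaled to reads recovered in genes, 0 members were 1.5-fold lower, and 32 and 33 of 34 stayed below 0. The count of 22 therefore depended on the scale of the 2 libraries. Hspe1 differed most, 1.76-fold lower (1.72 to 1.80) in cKO, then Timm13 at 1.72-fold (1.68 to 1.77) and Tomm5 at 1.70-fold (1.66 to 1.74). Hspd1 was 1.57-fold lower (1.55 to 1.60). These sizes too depended on the scale. As deposited, the cKO to wild-type ratios of Hspe1, Timm13, Tomm5 and Hspd1 were 0.568, 0.580, 0.589 and 0.635. Scaled to reads recovered in genes they were 0.732, 0.747, 0.759 and 0.818, outside the counting intervals. At the other end, by log2(FPKM + 1), were Tomm34 (-0.16), Timm29 (-0.36) and Lonp1 (-0.50).

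By role, the intermembrane space chaperones had a median genotype difference of -0.70 after irradiation, the TOM members -0.64, the presequence translocase -0.62, matrix folding -0.62, the proteases -0.61, the motor -0.58, the peptidase -0.55 and the carrier translocase -0.50. Samm50 stood at -0.63. These lay below the median of all genes (-0.45), whereas the cytosolic cochaperone Tomm34 stood above it at -0.16. The more abundant members were the lower ones in cKO: rho between mean level and difference was -0.79 over the 34 members and -0.37 over all genes. Abundance also went with the irradiation differences. There rho was 0.65 over members in wild type and 0.63 in cKO, against 0.35 and 0.31 over all genes. The mean level included the libraries being compared, so level and difference shared values and were not independent. How much of each rho, for genotype or for irradiation, came from these shared values was not tested. Gene length also went with the genotype difference after irradiation, with a rho of 0.56 over members and 0.07 over all genes. The 12 shorter members had a median difference of -0.70 and the 22 longer ones -0.59. The part of length was not tested here either.

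**Figure D5:**
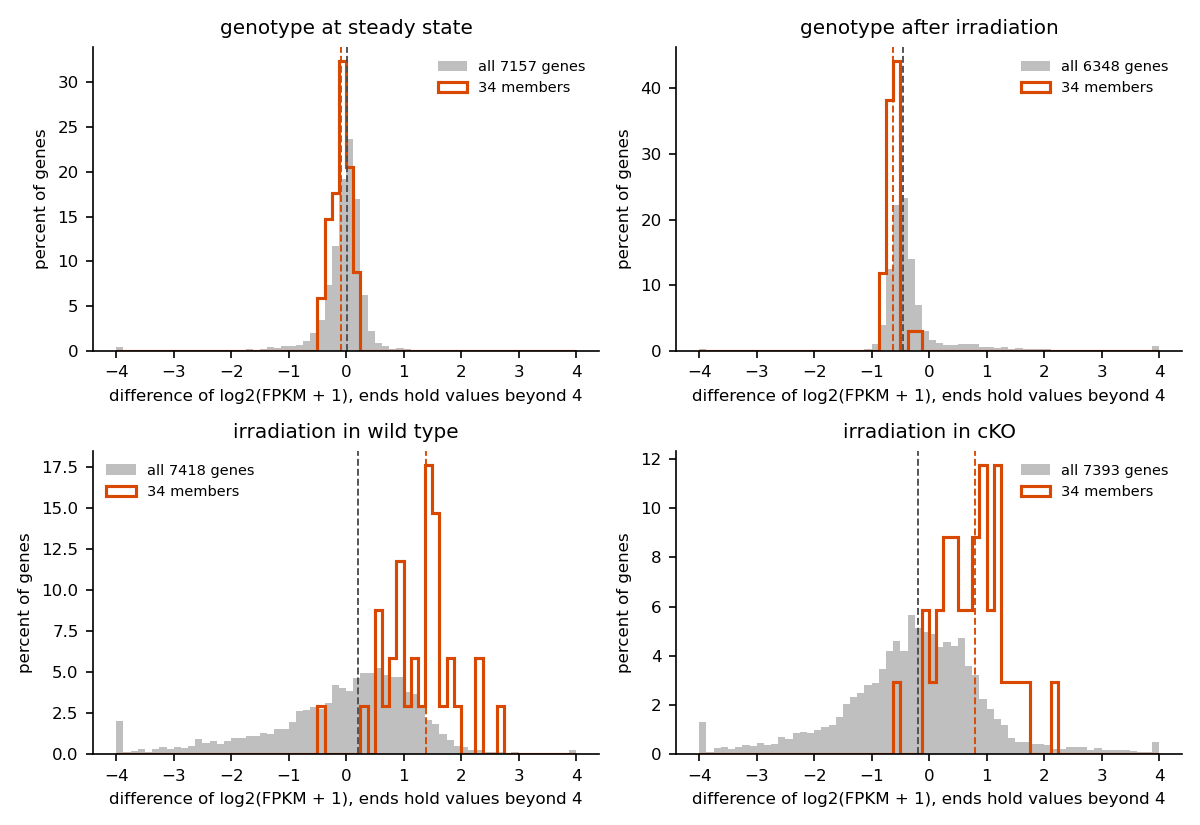
Distribution of differences in log2(FPKM + 1) (x axis) for the 34 members (outline) and for all genes compared (grey), as a percent of genes (y axis), in the 4 comparisons; dashed lines are medians and the end bins hold values beyond 4. The members' median lies 1.18 and 0.99 above that of all genes for irradiation in wild type and cKO, and -0.10 and -0.18 from it for genotype at steady state and after irradiation.

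Other cells' markers moved with these comparisons. The summed level of 10 erythroid genes was 4068, 2671, 13710 and 16742 FPKM, with 10 of 10 at least 1.5-fold higher in both genotypes. Klf1, the erythroid transcription factor, was measured at 93.5, 70.0, 703 and 427 FPKM. Of 10 cycling genes 9 were higher after irradiation in wild type and 6 in cKO, and their sums were 413, 409, 1265 and 863 FPKM, highest in the irradiated wild-type library as for the import genes. Over all genes, 34.9% were at least 1.5-fold higher after irradiation in wild type and 20.8% in cKO. Markers differed between the genotypes as well. At steady state, 8 of 9 macrophage genes (median -1.37), 5 of 7 B and plasma genes and 5 of 9 erythroid genes were at least 1.5-fold lower in cKO, while 6 of 9 neutrophil genes (median 0.67) were higher. No T and NK gene (0 of 5) and no cycling gene (0 of 10) was 1.5-fold apart there. The shares over all genes at steady state were 1.77% higher and 5.51% lower. In the irradiated cKO library against the wild-type one, 9 of 9 neutrophil, 10 of 10 macrophage, 7 of 7 B and plasma and 4 of 5 T and NK genes kept were at least 1.5-fold higher. The erythroid genes were mixed, 6 of 10 higher and 3 lower, with Klf1 among the lower. Of the 10 cycling genes 0 were higher and 5 lower (median -0.59). Over all genes in that comparison 7.42% were higher and 24.6% lower (median -0.45). The B and plasma list alone took 10.9%, 7.22%, 1.57% and 4.84% of reads in genes, so it moved the share left for other genes. None of the listed markers was at 0 in any library, and their part in the import gene differences was not tested.

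The irradiation difference, signed, was below that of wild type in the cKO for all 34 members as deposited, and for 33 on the scale of reads recovered in genes. For Tomm34 this means a larger drop in the cKO (-0.53) than in wild type (-0.42), and for Timm29 and Timm21 a change of sign. The cKO minus wild-type difference had a median of -0.51, against -0.40 over 7772 genes, and 28 of 34 members lay below the median of all genes. It ran from -0.80 for Hspa9 to -0.11 for Tomm34. The 2 irradiation comparisons and the 2 genotype comparisons are built from the same 4 libraries, so this repeats the genotype differences above in another form.

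Beyond the members, 39 other genes of the pathway were followed, covering metaxins, further proteases, prohibitins, cytosolic chaperones that deliver precursors, and regulators of the mitochondrial stress response. In wild type, 20 of the 35 kept were at least 1.5-fold higher after irradiation (57.1%, beside 34.9% of all genes) and 1 lower. In cKO, 9 of 34 were higher (26.5%, beside 20.8%) and 2 lower. Their medians were 0.65 and 0.22, below the members' 1.39 and 0.79. Phb2 and Phb, the prohibitin ring of the inner membrane, led: Phb2 was measured at 51.3, 47.1, 224 and 133 FPKM and Phb at 88.3, 84.7, 333 and 195. Hsp90aa1, a cytosolic chaperone that delivers precursors to Tomm70a, was measured at 224, 191, 687 and 428. Immp2l, an inner membrane peptidase, went the other way, at 17.8, 17.0, 8.16 and 5.70. For genotype, 0 of 34 were 1.5-fold apart at steady state and 11 of 35 were lower in cKO after irradiation (31.4%, beside 24.6% of all genes), Oma1 (-0.77), Phb (-0.77), Phb2 (-0.76) and Romo1 (-0.74) by the largest log2 differences.

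The transcription regulators on that list were singled out after their values were seen. Atf4, which drives the integrated stress response, stood at 99.3, 111, 105 and 76.8 FPKM, and its target Ddit3 at 26.0, 30.8, 36.5 and 27.6. Atf5, a regulator of the mitochondrial unfolded protein response, stayed under 1 FPKM in all 4 libraries. Hsf1, the heat shock factor, was measured at 26.0, 33.2, 41.1 and 26.2 FPKM, 1.58-fold higher after irradiation in wild type and 0.790 times the steady-state value in cKO. Nrf1 and the ETS factor Gabpa, both known activators of nuclear genes for mitochondria, were measured at 4.87, 5.24, 6.88 and 6.11 FPKM and at 4.29, 4.47, 6.503 and 4.57. As deposited, both irradiated libraries lay above both steady-state ones for those last genes, which was not so for Atf4, Ddit3 or Hsf1. For Gabpa in the cKO this was a near tie (1.02-fold, 609 reads irradiated and 641 at steady state) under the minimum of 5 FPKM. The irradiation difference of Ddit3 in cKO (-0.15 on the log2 scale) lay above the median of all genes (-0.20). Those of Atf4 (-0.53) and Hsf1 (-0.33) lay below it.

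Other nuclear genes for mitochondrial proteins gave values close to those of the import set. The 77 mitochondrial ribosomal protein genes had median differences of 1.18 and 0.71 for irradiation in wild type and cKO, and of -0.22 and -0.68 for genotype at steady state and after irradiation. For the nuclear respiratory chain genes, 76 of 84 kept, the same medians were 1.02, 0.70, -0.34 and -0.67. The import members' medians, 1.39, 0.79, -0.10 and -0.63, were the highest of the 3 lists in all 4 comparisons, a description without a test.

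Promoter sequence was compared last. RefSeq windows of 300 bases, 250 before and 50 after each start, were found for 34 of the 39 members (37 windows). The ETS core CCGGAAG, searched on both strands like all motifs here, was in 43.2% of the members' windows and 8.86% of all 32851 windows. The heat shock core TTCNNGAA was in 24.3% against 8.52%, in the windows of Clpp, Hspd1, Hspe1, Timm10, Timm13, Timm8a2, Timm9, Tomm20 and Tomm22. The Myc E-box CACGTG was in 18.9% against 7.15%, and the NRF1 core GCATGCGC in 5.41% against 2.71%. The E-boxes CATCTG (16.2% against 17.2%) and CATATG (2.70% against 3.91%) and the CCAAT box (32.4% against 37.4%) were no more frequent in the members' windows. These are matches of letters, not binding sites, and the windows of Hspd1 and Hspe1 overlap. The members' shares rest on 37 windows, 2 of them with the NRF1 core and 1 with CATATG. All windows were taken without regard to expression, and the shares were not tested. Among the members with large irradiation differences in wild type, the Tomm5 window had no match to any of these motifs. Those of Tomm40 and Timm23 had no heat shock match, whereas Timm8a2, under the minimum in every library, had one. Whether matches go with the differences was not tested. The 250 bases before a RefSeq transcript start are shown for Timm13 and Tomm34, picked by their irradiation differences. Timm13 was among the members with the largest difference, and Tomm34 was the member that was lower. Timm13 lies at chr10:80900970-80901219 and Tomm34 at chr2:164071170-164071419 (GRCm38.p6, both minus strand, written 5′ to 3′ along the gene). The Tomm34 gene is annotated up to 164071178, so the last few bases of its stretch lie inside the gene. Capitals mark matches to the heat shock, NRF1 and ETS cores.
Timm13 promoter: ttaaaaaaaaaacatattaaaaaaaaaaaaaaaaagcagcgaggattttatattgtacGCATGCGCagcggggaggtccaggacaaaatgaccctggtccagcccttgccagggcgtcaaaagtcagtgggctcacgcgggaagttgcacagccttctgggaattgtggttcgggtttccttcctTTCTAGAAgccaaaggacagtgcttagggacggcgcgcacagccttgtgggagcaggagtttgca
Tomm34 promoter: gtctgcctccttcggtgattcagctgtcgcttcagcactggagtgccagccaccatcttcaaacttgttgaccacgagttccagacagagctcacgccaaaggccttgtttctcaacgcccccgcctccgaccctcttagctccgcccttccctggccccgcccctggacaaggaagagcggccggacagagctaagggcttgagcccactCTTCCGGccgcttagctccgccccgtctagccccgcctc
Timm13 held 1 heat shock and 1 NRF1 match, and Tomm34 held 1 ETS match.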

How the data were processed

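RNA-seq was analysed from 4 libraries, 1 per group, and the 2 ATAC-seq samples were not analysed here. FPKM per gene, as deposited by the authors, were used as they stood. HOMER, MACS2 2.1.0, Bowtie, BWA 0.7.12-r1039 and the build mm10 come from the submitters' processing notes. Their roles for RNA, and the counting of reads, are not given in the sources used here. Symbols were joined to 30231 of 30409 identifiers. Whole reads per gene were recovered from the ratios of the FPKM (29934 of 29934 genes above 0 somewhere, within 0.02 reads). The steps were tested on simulated data.

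Differences were taken on log2(FPKM + 1), with a pseudocount of 1 and a minimum of 5 FPKM in the higher library, and members at least 1.5-fold apart were counted beside all genes. Ratio intervals are conditional exact binomial at 95%. Members and lists were chosen with earlier results of these data known. Any member could be named. Values in full were set for members 1.5-fold apart by genotype, the 3 highest and 3 lowest per comparison, the chaperonin pair, and the extremes of each role, with up to 4 other pathway genes per comparison. Alternatives covered pseudocount, minimum level, scaling, the fold, the mean and gene length. Scaling to reads recovered in genes was added after the data were seen. Python 3.11.15, pandas 2.3.3 and scipy 1.17.1 were used.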

Additional observations from a re-analysis of the deposited data

Results flagged for a closer look

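For 5 members the genotype difference, taken from the median of all genes, was above 0 at steady state and below 0 after irradiation, each beyond its counting interval. The cKO minus wild-type difference of the irradiation differences, on the log2(FPKM + 1) scale, was -0.80 for Hspa9, -0.75 for Hspd1, -0.73 for Tomm70a, -0.70 for Pmpca and -0.69 for Trap1. The median of all genes was itself -0.40. Taken from that median, the 5 values were -0.40, -0.35, -0.33, -0.30 and -0.29 in turn. With 1 library per group these differences between conditions were not tested.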

How the results depend on the processing

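Of 168 values of 13 results under 14 alternatives, 142 moved by less than the tolerance, 26 moved and 0 reversed. No paired analysis was possible because each group held 1 library, and for the same reason no library could be left out. For genotype after irradiation, the members' median relative to all genes (-0.18) was -0.25 with a pseudocount of 5, -0.31 with a minimum of 1 FPKM, -0.10 with 20, -0.61 with none and -0.32 as a mean. The 22 members lower there became 8 with scaling by the median of ratios and 0 without the 50 most abundant genes, 0 centred on all genes, 0 at 2-fold and 0 on the scale of reads in genes. For irradiation in wild type the relative median (1.18) was 1.11 with a pseudocount of 5, 1.40 and 0.81 with minimums of 1 and 20, 1.29 without the 50 most abundant genes and 1.34 as a mean. The 0 members lower became 1 (Tomm34) without those 50 genes, 1 when centred and 1 on the scale of reads in genes. For irradiation in cKO the relative median (0.99) was 0.89 with a pseudocount of 5, 0.75 with a minimum of 20, 0.72 with none and 1.06 without the 50 genes. The 21 members higher became 11 at 2-fold, and 1 was lower without the 50 genes. The relative difference of differences (-0.11) was -0.25 with a minimum of 1 FPKM and -0.50 with none. The cause of these shifts was not tested. Members at least 1.5-fold apart gave 0 reversals in 518 single values, but 351 of these values moved. Depth limits Tomm6, Timm8a2 and Tomm20l, with 3 reads or fewer in any library.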
